A study of Mus musculus with 2 samples.

Results

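Klf2, Klf4 and Klf5, with their relatives Klf3 and Klf9, were followed in single mouse embryonic stem cells (mESCs) that had been passaged without telomerase. These 5 genes were chosen by name from the Krüppel-like factor (Klf) family with their levels in these same cells already known, so every value below is a description of them. They are 5 of the 38458 gene columns of the count tables. All 5 were among the 6984 genes with at least 50 unique molecular identifiers (UMIs, tags that each mark 1 captured RNA molecule) over both libraries.

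Both libraries came from DKO741, a Terc-/- line made from E14 mESCs by targeting both alleles of the telomerase RNA gene with the TR-10 construct. Between both rounds of targeting, adenoviral Cre excised the loxP-flanked selection cassette. PD100 was the culture labelled as passage 100, before alternative lengthening of telomeres (ALT), and PD800 was the surviving culture of that line labelled as passage 800. The study counts these time points as population doublings (PD). Both cultures carry the Terc deletion and differ in time in culture and in ALT state. Stocks of the line were grown on mouse embryonic fibroblasts, and the cells used for experiments were feeder-free. DKO741 is 1 of 2 Terc-/- lines described with the samples, and cells with intact Terc were not analysed here. Each time point had 1 library, so there is no replicate error and no test. All intervals are 95% intervals that cover counting error only, and the effect of passage cannot be told apart from that of library preparation.

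Cells with at least 1000 UMIs and at most 20% mitochondrial UMIs were kept, which left 814 of 1291 barcodes in PD100 and 900 of 1666 in PD800. The libraries held 1826233 and 2580963 UMIs in these cells, with medians of 2151 and 2701.5 UMIs per cell and of 1.23% and 4.42% mitochondrial UMIs. Of the kept barcodes, 8 were present in both libraries. No UMI of Terc was found in either library, which allows up to 1.64 CPM (UMIs per 1000000 UMIs of the library) in PD100 and 1.16 CPM in PD800. All 8 embryonic stem cell markers had UMIs in both libraries, at 11797 CPM in sum in PD100 and 12333 CPM in PD800. Dppa5a alone gave 8841 and 9676 CPM of these sums. The log2 ratio of PD800 over PD100 was below 0 for 4 of the 8 markers and above 0 for 4. The 12 extraembryonic endoderm markers summed to 429 CPM in PD100 and 32.5 CPM in PD800, with Gata6 at 54 and 0 UMIs. Fibroblast markers summed to 14.2 and 12.4 CPM, with 2 of 8 at 0 in each library, and trophoblast markers to 42.7 and 9.30 CPM, with 1 of 7 at 0 in each. Primed epiblast markers summed to 202 and 49.98 CPM over 5 genes, none of them at 0. Their part in the differences of the Klf genes was not tested beyond the endoderm marker-positive cells described further on.

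Klf factors are transcription factors with a zinc finger domain that binds GC-rich and CACCC-type DNA. In mESCs, Klf2, Klf4 and Klf5 have overlapping roles in self-renewal, and Klf4 is known as a reprogramming factor. Klf4 is induced by leukaemia inhibitory factor (LIF) through STAT3, Klf2 is held down by MEK and ERK signalling and can be driven by ERK5 and MEF2 factors, Klf3 is a repressor that recruits CtBP, and Klf9 is induced by glucocorticoid and thyroid hormones and works with Sin3a.

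The promoters of Klf2 and Klf4 are shown first because these genes gave the largest differences in opposite directions and are known to answer to different signals. The windows come from the RefSeq promoter table (GRCm38.p6), which held 4 of the 5 genes and no entry for Klf5, and run 5′ to 3′ on the gene's strand up to the first annotated transcript start. Klf2 lies on the plus strand (chr8:72318812-72319032, 221 bases) and Klf4 on the minus strand (chr4:55532476-55532725, 250 bases). Capitals mark matches to the GC box GGGCGG on either strand, of which a pair overlaps in Klf4, and in Klf2 also a match to the MEF2 consensus.
Klf2: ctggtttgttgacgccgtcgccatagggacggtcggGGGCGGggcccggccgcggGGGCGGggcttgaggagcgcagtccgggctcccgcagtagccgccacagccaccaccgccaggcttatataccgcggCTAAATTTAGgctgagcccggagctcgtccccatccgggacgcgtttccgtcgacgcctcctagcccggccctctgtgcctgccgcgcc
Klf4: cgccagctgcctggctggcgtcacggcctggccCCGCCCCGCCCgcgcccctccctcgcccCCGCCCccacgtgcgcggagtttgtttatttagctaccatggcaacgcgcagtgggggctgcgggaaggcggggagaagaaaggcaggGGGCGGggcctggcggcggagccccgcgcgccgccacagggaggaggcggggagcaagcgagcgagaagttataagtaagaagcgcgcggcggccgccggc
The Klf2 window held 2 GC boxes and 1 MEF2 match at 72318944 to 72318953, which reads the same on both strands. The Klf4 window held 4 GC boxes and no MEF2 match. In the 250 bases before the start, a GC box was found in 32.7% of 32851 promoters, a CACCC match in 52.0%, a STAT match (TTCNNNGAA) in 7.02% and a MEF2 match in 1.69%, each searched on both strands. Klf3 had 6 GC boxes and 5 CACCC matches there, Klf9 had no GC box, 1 CACCC match and 1 STAT match, and neither Klf2 nor Klf4 held a STAT match. A match is a description of the letters, not a bound site.

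Klf4 was the member with a clearly higher level in PD800 than in PD100. It had 124 UMIs in PD100, or 67.9 CPM (56.5 to 81.0), and 566 UMIs in PD800, or 219 CPM (202 to 238). The intervals do not overlap, and PD800 was 3.23-fold higher. On the log2 scale the ratio was 1.69 (1.41 to 1.98), which ranked 348 of the 6984 genes.

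Klf2 had the opposite order. It had 559 UMIs (306 CPM, 281 to 333) in PD100 and 327 UMIs (127 CPM, 113 to 141) in PD800. This was 2.42-fold lower in PD800, a log2 ratio of -1.27 (-1.47 to -1.07), and PD100 lay well above PD800 beyond counting error. Klf5, which shares targets with both and is also active in trophectoderm, had 299 UMIs (164 CPM, 146 to 183) in PD100 and 238 UMIs (92.2 CPM, 80.9 to 105) in PD800. Its log2 ratio was -0.83 (-1.08 to -0.58), or 1.78-fold lower in PD800.

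**Figure D1:**
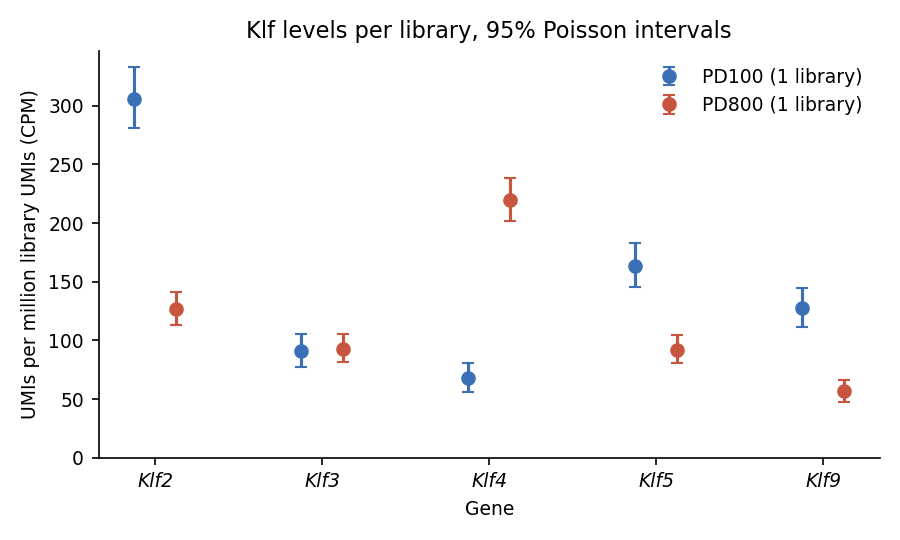
Level of each Klf gene in the 1 library of PD100 and the 1 library of PD800, in CPM, with 95% Poisson intervals. Klf4 went from 67.9 CPM in PD100 to 219 CPM in PD800 and Klf2 from 306 to 127 CPM, while the intervals of Klf3 overlap. Levels are to be read between libraries within a gene, since the 3′ tags were not scaled by capture between genes.

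Klf9 was lower in PD800 and Klf3 differed little. Klf9 had 233 UMIs (128 CPM, 112 to 145) in PD100 and 146 UMIs (56.6 CPM, 47.8 to 66.5) in PD800, a log2 ratio of -1.17 (-1.48 to -0.87) or 2.26-fold lower. Klf3 had 166 UMIs (90.9 CPM, 77.6 to 106) and 239 UMIs (92.6 CPM, 81.2 to 105). Its log2 ratio of 0.03 had an interval of -0.26 to 0.32, so its libraries were not told apart by counting error. In sum the 5 genes gave 756 CPM in PD100 and 587 CPM in PD800.

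Past a fold of 2 lay 1 of the 5 members on the higher side and 2 on the lower side. Over all 6984 genes with 50 or more UMIs, 9.22% were at least 2-fold higher and 16.9% at least 2-fold lower, which is 644 and 1178 genes. The members were picked with this contrast in view, so nothing is read from their count. Klf9, at 2.26-fold, was the nearest member past that fold and Klf5, at 1.78-fold, the nearest short of it.

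The median log2 ratio of all tested genes was -0.34, so the scale moves these values. Relative to that median the log2 ratio was -0.93 for Klf2, 0.37 for Klf3, 2.03 for Klf4, -0.49 for Klf5 and -0.83 for Klf9. No member changed sign, but Klf2 and Klf9 came within 2-fold. With median-of-ratios scaling, which sets that median to about 0, 970 genes were at least 2-fold higher and 544 at least 2-fold lower, so the share of higher and lower genes turned round.

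**Figure D2:**
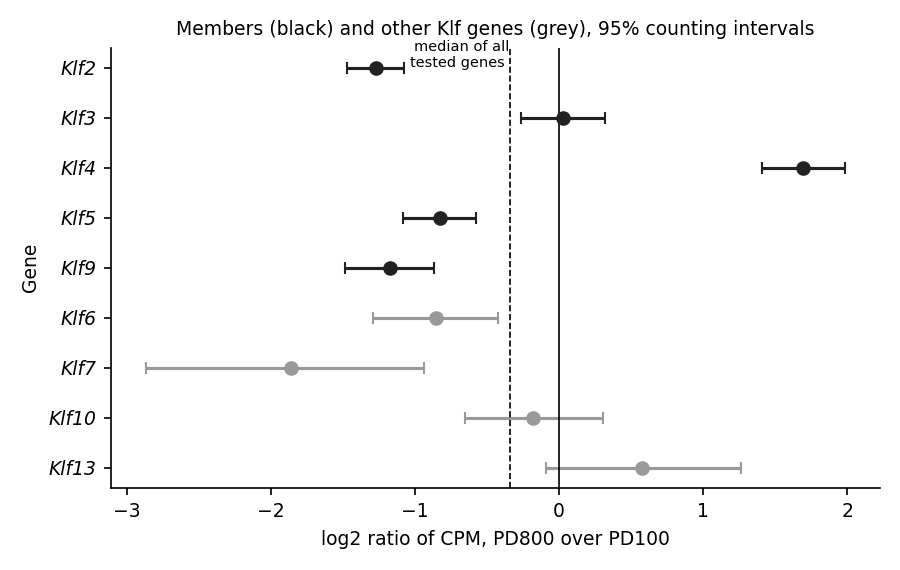
Log2 ratio of CPM, PD800 over PD100, for the 5 members (black) and the 4 other Klf genes with 50 or more UMIs (grey), with exact 95% counting intervals. The dashed line is the median of all 6984 tested genes, at -0.34. Klf4, at 1.69, lies right of both lines, and Klf2, Klf5 and Klf9 lie left of both. Klf10 lies left of 0 and right of the median, so its direction depends on the scaling.

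The order held in the number of cells with a UMI once depth was made equal. Every kept cell was thinned to 1000 UMIs by a random draw. Klf4 then had a UMI in 40 of 814 PD100 cells (4.91%, 3.53 to 6.63) and 157 of 900 PD800 cells (17.4%, 15.0 to 20.1). Without thinning the shares were 9.95% and 36.2%, that is 81 and 326 cells. Klf2 had a UMI in 161 PD100 cells (19.8%, 17.1 to 22.7) and 94 PD800 cells (10.4%, 8.52 to 12.6), against 33.3% and 24.2% without thinning. For both genes the intervals of the libraries stayed apart.

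Klf9 followed Klf2, and Klf5 and Klf3 were less clear. Klf9 had a UMI in 10.6% (8.54 to 12.9) of thinned PD100 cells and 5.33% (3.96 to 7.01) of PD800 cells. Unthinned, these were 18.4% and 12.8%. Klf5 had a UMI in 11.3% (9.21 to 13.7) and 8.22% (6.51 to 10.2), intervals that overlap, and in 20.8% and 19.1% of cells without thinning. For Klf3 the order depended on the draw. This draw gave 7.13% (5.45 to 9.11) in PD100 and 6.67% (5.13 to 8.50) in PD800, while the mean over all possible draws gave 6.88% and 8.0%. A share without a UMI does not mark cells that lack the RNA, because most molecules of a cell are not captured at this depth.

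**Figure D3:**
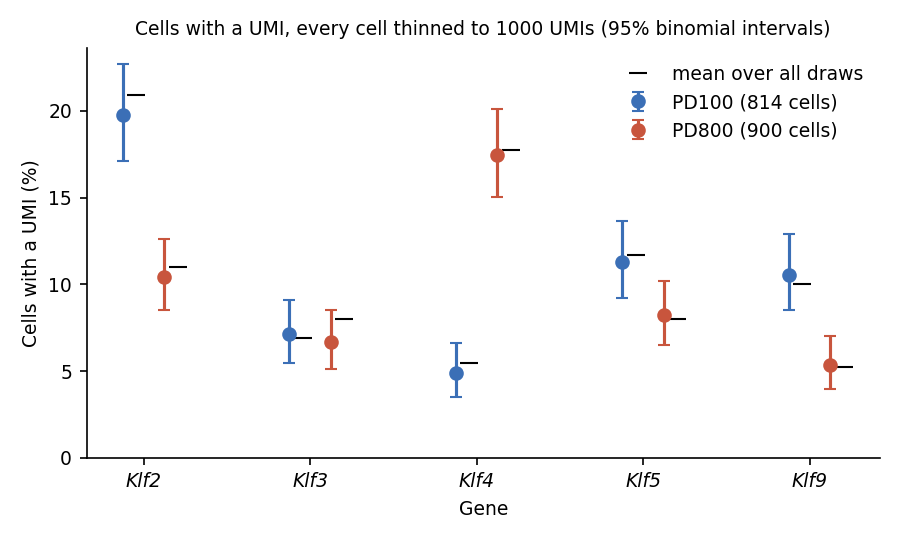
Share of cells with at least 1 UMI of each gene in PD100 (814 cells) and PD800 (900 cells), every cell thinned to 1000 UMIs, with exact 95% binomial intervals. Dashes give the mean over all possible draws. Klf4 went from 4.91% to 17.4% and Klf2 from 19.8% to 10.4%, and for Klf3 the draw and the mean over draws put the libraries in opposite order.

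The number of UMIs within positive cells also differed. In PD100, 76 of the 271 Klf2-positive cells had 3 or more Klf2 UMIs, and in PD800 this was 25 of 218. Klf4 had 7 such cells of 81 in PD100 and 60 of 326 in PD800. The most UMIs of Klf4 in any cell were 9 in PD100 and 10 in PD800, and of Klf5 11 and 4. PD800 cells were deeper, so these counts are not at equal depth. After thinning, the variance over the mean of the UMI count per cell in PD100 was 1.48 for Klf2, 1.55 for Klf3, 1.58 for Klf4, 1.59 for Klf5 and 1.26 for Klf9, where the median tested gene had 1.26. In PD800 it was 1.29, 1.14, 1.29, 1.13 and 1.10 in the same order, where the median was 1.15. A value of 1 is what counting alone gives, and the median gene was also lower in PD800. With values above 1, UMIs gather in some cells more than counting gives. The intervals of CPM and of ratios leave this out, so they are too narrow for the variation between cells.

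The share of cells with any of Klf2, Klf4 and Klf5 had overlapping intervals in the libraries at equal depth, although Klf4 and Klf2 differed in opposite directions. After thinning it was 262 of 814 cells (32.2%, 29.0 to 35.5) in PD100 and 287 of 900 (31.9%, 28.9 to 35.0) in PD800. Without thinning it was 52.7% and 58.7%. All 3 genes had a UMI in 9 PD100 cells and 20 PD800 cells. Counting all 5 members without thinning, 299 PD100 cells had none, 317 had 1, 142 had 2, 49 had 3 and 7 had 4. In PD800, 290 cells had none, 328 had 1, 197 had 2, 64 had 3, 20 had 4 and 1 had all 5.

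Members were found together in about the number of cells that their own detection rates give. The expected number of cells with both genes was taken from a rate set to match the number of cells with each gene and the depth of each cell. Klf2 and Klf4 were both found in 32 PD100 cells, against 29.7 expected, and in 84 PD800 cells, against 89.0. Klf4 and Klf5 were both found in 16 and 78 cells, against 18.7 and 70.5, and Klf2 and Klf5 in 53 and 46, against 61.5 and 47.7. The ratio of found to expected cells ran from 0.855 to 1.53 over the 10 pairs in PD100 and from 0.935 to 1.30 in PD800. The interval held 1 for 9 of 10 pairs in PD100 and 10 of 10 in PD800.

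The exception was Klf3 with Klf5 in PD100. Both were found in 37 cells, against 24.2 expected, a ratio of 1.53 (1.08 to 2.11). Of the 105 Klf3-positive cells 35.2% had a Klf5 UMI, and of the other PD100 cells 18.6%. After thinning, 9 cells held both, against 6.56 expected, and in PD800 the ratio was 1.08. All pairs were examined in both libraries without a test, so this single interval is not taken to set the pair apart from the rest.

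**Figure D4:**
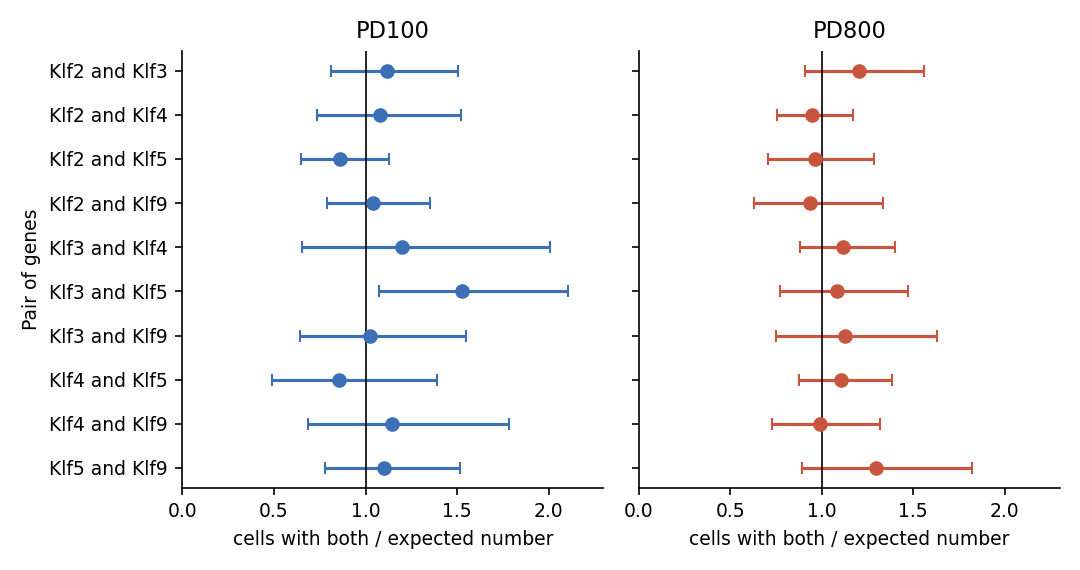
Cells with UMIs of both genes over the number expected from the cells with each gene and the depth of each cell, for the 10 pairs of members in PD100 (left) and PD800 (right), with 95% Poisson intervals. The line at 1 marks equal numbers. Klf3 with Klf5 in PD100, at 1.53, is the pair whose interval leaves out 1.

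When the expected number was taken from the library mean and cell depth alone, the rate chosen first, all 10 pairs lay under 1 in both libraries, at 0.418 to 0.754 in PD100 and 0.634 to 0.949 in PD800. Each gene by itself was also found in fewer cells than this rate gives, at 0.689 to 0.753 of the number in PD100 and 0.809 to 0.866 in PD800. Cells with a UMI were deeper than cells without. For Klf4 the medians were 3052.5 and 2441.5 UMIs in PD800, and 2355 and 2104 in PD100.

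Some PD100 cells carried markers of extraembryonic endoderm, and Klf2 was not detected in them. A cell was counted as endoderm marker-positive when it had UMIs of at least 3 of the 12 markers, which include the transcription factor Gata6 and the basement membrane collagens Col4a1 and Col4a2. This held for 40 PD100 cells and 0 PD800 cells, where the most markers in any cell were 2. In PD100, 3 cells had exactly 2 markers and 3 had exactly 3. The marker-positive cells had a median of 2379.5 UMIs and the other PD100 cells 2145.

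Klf2 had a UMI in 0 of these 40 cells, which allows a share of up to 7.50% with 3 counts as the floor and 8.81% by the Clopper-Pearson interval drawn in the plot of these shares, and in 271 of the other 774 (35.0%, 31.7 to 38.5). Over all 95054 UMIs of the marker-positive cells none was Klf2, while the other cells had 323 CPM. With 3 counts over the group as the floor, the level was 10.2-fold lower, a log2 ratio of -3.35. The exact intervals allow a smaller difference, with up to 38.8 CPM in the marker-positive cells and a log2 ratio of up to -3.05. Pou5f1, the core stem cell factor Oct4, had a UMI in 30.0% of the marker-positive and 65.1% of the other cells, and the stem cell marker Dppa5a in 100% and 99.1%. Thinned to 1000 UMIs, Klf2 was at 0% and 20.8%. When at least 2 markers were asked for, 1 of 43 cells held Klf2 UMIs, 3 in all.

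The counts of Klf4 and Klf5 in these cells were small, at 10 and 24 UMIs, and the part of free RNA in them was not tested. Klf5 had a UMI in 18 of the 40 (45%, 29.3 to 61.5) and in 19.5% (16.8 to 22.5) of the others, and Klf4 in 9 (22.5%, 10.8 to 38.5) and 9.30% (7.35 to 11.6). In CPM the log2 ratio of marker-positive over other cells was 0.67 (0.00 to 1.27) for Klf5 and 0.68 (-0.42 to 1.61) for Klf4. In a single random draw at equal depth, Klf5 had a UMI in 12.5% (4.19 to 26.8) of the marker-positive and 11.2% (9.10 to 13.7) of the other cells. For Klf4 these shares were 5.0% (0.61 to 16.9) and 4.91% (3.50 to 6.68). They rest on 5 and 2 marker-positive cells, and other draws of these cells were not tested. Without thinning, Klf3 had a UMI in 12.5% of the marker-positive and 12.9% of the other cells, and Klf9 in 22.5% and 18.2%. Without the marker-positive cells the PD800 over PD100 log2 ratio was -1.35 for Klf2, 0.00 for Klf3, 1.74 for Klf4, -0.78 for Klf5 and -1.18 for Klf9, so each difference was about as large.

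**Figure D5:**
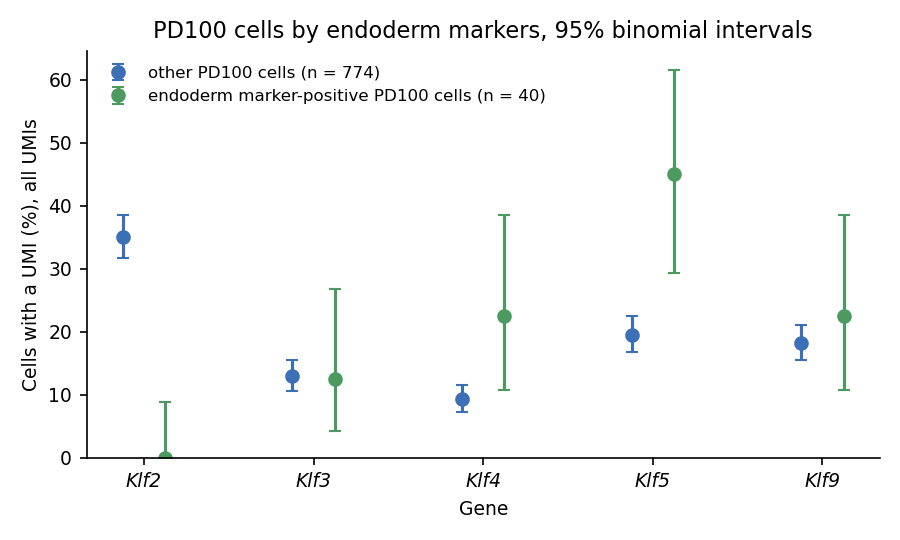
Share of PD100 cells with at least 1 UMI of each gene among cells with 3 or more extraembryonic endoderm markers (40 cells) and the other cells (774 cells), all UMIs, with exact 95% binomial intervals. Klf2 is at 0% against 35.0%, and Klf5 at 45% against 19.5%. In a single random draw at equal depth, Klf5 was at 12.5% (4.19 to 26.8) against 11.2% (9.10 to 13.7). The 12.5% rests on 5 cells.

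Among other members of the family, Klf6 and Klf7 were lower in PD800, and the 3 tested genes of the related Sp factors had ratios above 0. Of 12 other Klf genes 4 had 50 or more UMIs, with 0 at least 2-fold higher, 1 at least 2-fold lower and a median log2 ratio of -0.52, or -0.17 relative to the median of all genes. For this and the following lists, the share over all 6984 genes is again 9.22% higher and 16.9% lower, and relative to their median 13.9% and 7.79%. Klf6, an early response gene, had 105 and 82 UMIs (log2 ratio -0.86, -1.29 to -0.43), and Klf7 had 36 and 14 (-1.86, -2.87 to -0.94). Klf10, which is induced by TGF-beta, was at -0.18 (-0.65 to 0.30) but above the median of all genes, and Klf13 at 0.57 (-0.09 to 1.26). Of 9 Sp factors, which bind the same GC boxes, 3 were tested and all were above 0, with none past 2-fold and a median of 0.72 (1.07 relative to all genes). Relative to all genes Sp1 (1.18) and Sp3 (1.07) lay past 2-fold. Sp1 had 32 UMIs in PD100 and 81 in PD800 (0.84, 0.23 to 1.48). The intervals of Sp2 (-0.24 to 1.16) and Sp3 (-0.04 to 1.54) included 0.

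The genes of the signals known to act on the members did not move as one. Of 6 tested genes of the LIF and STAT3 pathway, which induces Klf4, 0 were at least 2-fold higher and 2 at least 2-fold lower, with a median of -0.78 (-0.44 relative to all genes). Stat3 itself had 134 and 94 UMIs (-1.01, -1.41 to -0.62) and the STAT3 target Pim1 126 and 45 (-1.98, -2.51 to -1.48). Socs3, another STAT3 target, was at 0.25 (-0.03 to 0.54) and the receptor gene Lifr at 0.70 (0.10 to 1.34). Relative to all genes the count was 1 higher (Lifr, 1.05) and 1 lower (Pim1), with Stat3 at -0.67. Klf4 was higher in the library in which Stat3 RNA was lower, and the part of this pathway in the Klf4 difference was not tested.

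Of 12 tested genes of the FGF and ERK pathway, 0 were at least 2-fold higher and 2 at least 2-fold lower, with a median of -0.15 that turned to 0.19 relative to all genes. Etv4, an ERK-responsive factor, was at -2.27 (-2.84 to -1.74) and the kinase gene Mapk3 at -1.40 (-1.81 to -0.99), while the ligand gene Fgf4 was at 0.61 (0.19 to 1.04). Relative to all genes the adaptor gene Grb2 (1.06) also lay past 2-fold, on the higher side. Among the 5 ERK5 and MEF2 genes only the ERK5 gene Mapk7 had 50 UMIs, with 62 and 28 (-1.65, -2.34 to -0.98). Mapk7 and Klf2 were both lower in PD800, and a link between them was not tested.

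Of 7 tested cofactors and ubiquitin ligases of Klf proteins, 1 was at least 2-fold higher and 2 at least 2-fold lower, with a median of -0.44 (-0.09 relative to all genes). The histone acetyltransferase gene Crebbp was at 1.06 (0.24 to 1.94), and Sin3b and Sin3a, scaffolds of a deacetylase complex, were at -1.39 and -1.11. Ctbp1 and Ctbp2, the corepressors that Klf3 recruits, were at -0.60 and -0.44, near the median of all genes. On the relative scale Sin3a, at -0.77, was within 2-fold. Klf9 and Sin3a were both lower in PD800, and a link between them was not tested.

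Of 13 pluripotency genes known as Klf targets, 4 were at least 2-fold higher and 2 at least 2-fold lower, with a median log2 ratio of 0.06. Higher were the nuclear receptor gene Esrrb (57 and 230 UMIs; 1.51, 1.09 to 1.958), the T-box gene Tbx3 (1.16, 0.67 to 1.67), Fbxo15 (1.13, 0.66 to 1.62) and Nanog (130 and 368 UMIs; 1.00, 0.71 to 1.30). Lower were Lefty1, a Nodal inhibitor, with 328 and 8 UMIs (-5.86, -7.08 to -4.86) and Mycn (-1.15, -1.39 to -0.92). Pou5f1 was at -0.35 and Sox2 at 0.06. Relative to the median of all genes the list stood at 0.40, with 5 genes past 2-fold on the higher side and 1 on the lower, since Tfcp2l1 (1.02) came in and Mycn (-0.81) dropped out.

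The share of cells with a target gene had overlapping intervals in cells with and without a member, with 1 exception. At equal depth, 13 target genes and 6 immediate early genes were compared between cells with and without each member in each library, 190 comparisons in all. The intervals were apart in 1. Zfp42 (Rex1), a naive pluripotency marker, had a UMI in 77 of 161 Klf2-positive PD100 cells (47.8%, 39.9 to 55.8) and in 216 of the 653 others (33.1%, 29.5 to 36.8). Those others include all 40 endoderm marker-positive cells, in which Klf2 was not found, and their part was not tested. With 190 comparisons and no test, this single result is not taken to set Zfp42 apart. In PD800, Nanog had a UMI in 8.28% of Klf4-positive and 10.9% of other cells, and Esrrb in 7.64% and 7.81%. Groups with a member were as small as 40 cells, for Klf4 in PD100. Esrrb was found in 0 of those 40, which allows up to 8.81%. Overlap of such wide intervals does not show that the shares are equal.

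Immediate early genes, to which Klf2, Klf4 and Klf6 are sometimes counted, stood lower in PD800. Of 6 tested genes 0 were at least 2-fold higher and 5 at least 2-fold lower, against 16.9% of all genes, with a median of -2.38, and relative to all genes the count was also 5, against 7.79%, with a median of -2.04. In sum, the 11 genes had 797 CPM in PD100 and 181 CPM in PD800. Junb, an AP-1 subunit, had 427 and 62 UMIs (-3.28, -3.69 to -2.90) and Ier2 742 and 287 (-1.87, -2.07 to -1.67). Their part in the Klf differences was not tested. Klf2, Klf5 and Klf9 lay on the same side as these genes and Klf4 on the other.

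Correlations of other genes with the members over cells were weak. In each library the 3 genes with the highest Pearson correlation to each member were sought over thinned cells. The top r ran from 0.150 to 0.330 over the 10 pairs of member and library. At r of 0.2 or more were Alkbh6 (0.33), Dnm2 (0.26) and Ola1 (0.24) with Klf4 over 814 PD100 cells, Krt10 (0.20) with Klf3 and Abcd3 (0.22) with Klf9 over 900 PD800 cells. When the cell with the most UMIs of the member was left out, these fell to -0.03, -0.01, 0.12, 0.17 and 0.20, so that 0 of 5 stayed at 0.2 before rounding.

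The genes around Klf2 were also lower in PD800. Klf2 lies at chr8:72319033-72321656 (GRCm38), and the 61 tested genes within 5 Mb had a median log2 ratio of -0.77 relative to the median of all genes, where Klf2 was at -0.93 and 42 of the 61 were above it. Klf4 (chr4:55527143-55532466) had 17 such neighbours with a median of 0.37, and 2 of them were above its 2.03. For Klf9 (chr19:23141226-23168134) the median of 15 neighbours was -0.07 and 13 were above it, for Klf5 (chr14:99298691-99315036) the median of 8 was 0.01 with 6 above, and for Klf3 (chr5:64803388-64832901) the median of 20 was 0.27 with 7 above. Klf2 thus lay between the quartiles of its neighbours (-1.05 and -0.40), and Klf4 above the upper quartile of its own (0.83). Klf9, at -0.83, and Klf5, at -0.49, lay a little under the lower quartiles of theirs (-0.71 and -0.44). The part of the region in the Klf2 difference was not tested. Klf3 overlaps exons of the antisense gene Gm20033, which had 4 UMIs in PD100 and 1 in PD800. It also overlaps C230096K16Rik on the same strand, though not in exons, and that gene had 16 and 21 UMIs. How reads were split between these genes was not tested.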

How the data were processed

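Cells were captured by inDrops with template-switching primers, libraries followed a Drop-seq-style protocol, and the authors deposited raw UMI counts per cell and gene for PD100 and PD800. Per the labels, Scanpy was used and the build was mm10. The authors counted with the inDrops pipeline at its defaults on a transcriptome made from this build, and its annotation release is not given in the sources used here. After the same thresholds the study states somewhat fewer cells per library than were kept here, and the reason was not tested. A 3′ tag reads near the end of a transcript, so levels were not compared between genes.

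The Klf genes and all gene lists were chosen with earlier results of these data known. Cells with at least 1000 UMIs and at most 20% mitochondrial UMIs were kept. Cells called as doublets (14 in PD100 and 8 in PD800, by Scrublet in scanpy 1.11.5 at an expected 5%) were kept and left out as an alternative. UMI sums of each library were scaled to its total (CPM). With 1 library per time point, no test was run. Intervals of 95% were exact Poisson for CPM, exact conditional for ratios and Clopper-Pearson for shares. Genes with 50 or more UMIs over both libraries were compared by a fixed fold of 2. All 5 members were named, list genes with 50 or more UMIs could be named, and correlated genes were named at r of 0.2 or more. Shares used a seeded draw of 1000 UMIs per cell. The lists were other Klf genes, Sp factors, LIF and STAT3, FGF and ERK, ERK5 and MEF2, Klf cofactors and ubiquitin ligases, pluripotency targets, immediate early genes and markers of 5 cell types. Gene positions came from GENCODE M21 and promoters from RefSeq. Python 3.11.15, numpy 2.4.6, scipy 1.17.1 and matplotlib 3.10.9 were used, and the scripts were tested on simulated data. Of the alternatives 23 were planned and 3 were added after seeing the data.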

Additional observations from a re-analysis of the deposited data

Results flagged for a closer look

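The members were also counted in the barcodes that the cell filter left out, 477 in PD100 (246800 UMIs) and 766 in PD800 (458381 UMIs). These lie outside the comparison of kept cells, and all 5 genes were there in both libraries at more CPM than a count of 0 would allow (12.2 CPM in PD100 and 6.54 CPM in PD800). Klf4 had 6 UMIs in PD100 (24.3 CPM, 8.92 to 52.9) and 83 in PD800 (181 CPM, 144 to 224), a log2 ratio of 2.90 (1.71 to 4.38). For Klf2, with 78 and 70 UMIs, it was -1.05 (-1.54 to -0.57). The log2 ratio was 0.48 (-0.36 to 1.38) for Klf3, -0.33 (-1.23 to 0.59) for Klf5 and -1.01 (-1.87 to -0.15) for Klf9. The direction was that of the kept cells for all 5 genes, with the intervals of Klf3 and Klf5 including 0. These barcodes share their libraries with the kept cells, so the same direction is not independent support. The Klf4 ratio rests on 6 UMIs in PD100. Whether these barcodes are cells or free RNA was not tested.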

How the results depend on the processing

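No paired analysis was possible because each time point had 1 library. The log2 ratio of each member kept its direction under the 8 alternatives, from -1.35 to -0.93 for Klf2, 0.00 to 0.37 for Klf3, 1.67 to 2.03 for Klf4, -0.90 to -0.49 for Klf5 and -1.23 to -0.83 for Klf9. Median-of-ratios scaling gave the values at one end: -0.93, 0.37, 2.03, -0.49 and -0.83. The order of the Klf3 shares turned with the draw, from 7.13% in PD100 and 6.67% in PD800 to 6.76% and 7.78% with another seed. Genes at least 2-fold higher and lower were 995 and 1916 with a minimum of 20 UMIs, 334 and 401 with 200, and 970 and 544 with median-of-ratios scaling. Thinning to 2000 UMIs also left out shallower cells, so that 465 and 651 cells remained. In the order Klf2, Klf3, Klf4, Klf5 and Klf9, the percent of cells thinned to 2000 UMIs was in PD100 34.8, 12.5, 9.68, 20.6 and 18.7 and in PD800 19.4, 14.3, 29.3, 14.3 and 9.98, and without thinning in PD100 33.3, 12.9, 9.95, 20.8 and 18.4 and in PD800 24.2, 18.7, 36.2, 19.1 and 12.8. The variance over the mean without thinning was in PD100 2.26, 2.03, 2.12, 2.35 and 1.72 and in PD800 1.62, 1.58, 1.75, 1.42 and 1.33. Another seed gave 1.28 for Klf3 in PD800, 1.35 for Klf5 in PD100 and 1.24 for Klf9 in PD800. With the expected number from the library mean and without thinning, co-detection was under 1 for all pairs. With the expectation matched to the cells found with each gene, chosen after seeing the data, 2 of 10 pairs in PD100 and 4 of 10 in PD800 were under 1. Co-detection was then in PD100 1.12 for Klf2-Klf3, 1.08 for Klf2-Klf4, 0.861 for Klf2-Klf5, 1.04 for Klf2-Klf9 and 1.20 for Klf3-Klf4. It was 1.53 for Klf3-Klf5, 1.02 for Klf3-Klf9, 0.855 for Klf4-Klf5, 1.14 for Klf4-Klf9 and 1.10 for Klf5-Klf9. In PD800 it was 1.20 for Klf2-Klf3, 0.944 for Klf2-Klf4, 0.964 for Klf2-Klf5, 0.935 for Klf2-Klf9 and 1.12 for Klf3-Klf4. There it was 1.08 for Klf3-Klf5, 1.13 for Klf3-Klf9, 1.11 for Klf4-Klf5, 0.992 for Klf4-Klf9 and 1.30 for Klf5-Klf9. Thinned to 1000 UMIs and with the expected number from the library mean, co-detection rests on few cells. It is given here only where it left the interval of the unthinned value. In PD100 it was 0.860 for Klf2-Klf3, 0.762 for Klf2-Klf4, 0.774 for Klf2-Klf5, 0.926 for Klf2-Klf9 and 1.03 for Klf4-Klf9. In PD800 it was 1.19 for Klf2-Klf3, 0.806 for Klf2-Klf4, 0.970 for Klf2-Klf5, 1.32 for Klf3-Klf4, 0.352 for Klf3-Klf5 and 1.57 for Klf5-Klf9. With the matched expectation after thinning, it ran from 0.664 to 1.42 in PD100 and from 0.405 to 1.77 in PD800. Endoderm marker minimums of 2 and 5, also chosen after seeing the data, moved no share beyond its interval. With 1 library each, depth limits the shares and no value has a replicate error.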
